A study of Mus musculus with 64 samples.

Results

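A set of 8 receptor, ligand and enzyme genes through which the heart receives adrenergic, angiotensin and endothelin signals were followed in the right ventricle (RV) and left ventricle (LV) of mice lacking cardiac Pkp2. They were taken by symbol from the count and TPM tables: Adrb1, Adra1a and Adra1b (adrenergic receptors), Agt, Ace and Agtr1a (the angiotensin precursor, the converting enzyme and the receptor) and Edn1 and Edn3 (endothelin ligands). All 8 were present among the 39152 named genes. The 3 receptors Adra1a, Adra1b and Agtr1a were lower in Pkp2-cKO hearts without treatment than in WT hearts in both ventricles, by 3.49-fold to 5.68-fold, and Ace was higher, with log2 fold changes of 1.08 in the RV and 0.85 in the LV. Of these, only Adra1a was also called in both ventricles under the unequal-variance test used by the study. Edn3 was lower in Pkp2-cKO hearts and higher than in WT hearts in the RV of all 3 vector-treated groups, up to 6.81-fold. The fall, and the rise in 1 of these groups, were not called under that test. In the RV, the fall and that rise were also lost when single animals were left out.

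All mice were C57BL6 and carried loxP-flanked alleles of Pkp2 (Pkp2 fl/fl), which encodes the desmosomal protein plakophilin 2. Of the 32 mice, 23 also carried αMyHC-Cre-ER(T2), a tamoxifen-activated Cre expressed in cardiomyocytes, so the gene was deleted in cardiomyocytes of adult animals and other cells of the heart kept it. RNA of the RV and the LV of each mouse was sequenced, which gave 64 libraries. The cKO group (Cre-positive, n = 4) received the vehicle HBSS after the same induction. AAV_3E13 (n = 8) and AAV_1E14 (n = 5) were Cre-positive mice given AAV9:mPkp2, an adeno-associated virus that carries mouse Pkp2, at 3e+13 and 1e+14 vector genomes per kg. AAV_1E14_2.5wk (n = 6) received 1e+14 vector genomes per kg, dosed 2.5 weeks after tamoxifen. For the other vector groups the labels place the single retro-orbital injection 1 week before tamoxifen, and descriptions of the study differ on this point. WT (n = 9) were Cre-negative Pkp2 fl/fl littermates given HBSS. Animals are named as in the labels, where WT_HBSS stands for WT, PKP2_HBSS for cKO, PKP2_m3e13 for AAV_3E13, PKP2_m1e14 for AAV_1E14 and PKP2_m1e14_2.5wk for AAV_1E14_2.5wk. Vector-treated and WT hearts were taken at 51 weeks, which the study counts from tamoxifen induction and not from birth, whereas untreated cKO hearts were collected earlier. Genotype or treatment thus cannot be told apart from age and time since induction in comparisons with cKO. The vector-treated hearts also come only from animals that lived to that time.

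Catecholamines from sympathetic nerves raise the rate and force of the heartbeat mainly through the beta-1 receptor, which raises cyclic AMP, while alpha-1 receptors act through phospholipase C and calcium. In the renin-angiotensin system, renin and angiotensin converting enzyme cut angiotensinogen stepwise into angiotensin II, which acts on the type 1 receptor to constrict vessels and promote hypertrophy and fibrosis. Endothelins are vasoconstrictor peptides made chiefly by endothelium that bind the type A and type B receptors.

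The promoters of 3 members are shown because these genes differed widely or in opposite directions between groups: Edn3, the member with the widest range across groups, Adra1b, with 2 annotated starts, which was lower in cKO, and Ace, also with 2, which was higher. RefSeq windows of 300 bases (250 before and 50 after a start, from the GRCm38.p6 table) matched 6 of the 8 members with 8 windows, and Adra1a and Agtr1a had no entry. Each printed window was found once, by exact match, in GRCm39. Capitals mark matches, on either strand, to any of 5 motifs. The GC box, GGGCGG, was held by 35.7% of all 32851 windows. The CCAAT box (by its name) was held by 37.4%, and the core of the TATA box, TATAA, by 24.9%. The GATA motif, spelled GATAA, was held by 25.4%, and the core of the cyclic AMP response element, TGACG, by 20.8%. The Edn3 window lies at chr2:174602162-174602461 (plus strand), the Adra1b windows at chr11:43792015-43792314 and chr11:43727267-43727566 (minus strand) and the first Ace window at chr11:105858524-105858823 (plus strand).
Edn3: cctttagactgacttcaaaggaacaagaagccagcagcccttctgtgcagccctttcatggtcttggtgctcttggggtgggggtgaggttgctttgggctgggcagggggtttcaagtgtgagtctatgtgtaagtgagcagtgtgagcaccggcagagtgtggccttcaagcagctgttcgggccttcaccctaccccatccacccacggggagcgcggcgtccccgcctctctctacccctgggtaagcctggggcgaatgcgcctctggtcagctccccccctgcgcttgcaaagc
Adra1b start 1: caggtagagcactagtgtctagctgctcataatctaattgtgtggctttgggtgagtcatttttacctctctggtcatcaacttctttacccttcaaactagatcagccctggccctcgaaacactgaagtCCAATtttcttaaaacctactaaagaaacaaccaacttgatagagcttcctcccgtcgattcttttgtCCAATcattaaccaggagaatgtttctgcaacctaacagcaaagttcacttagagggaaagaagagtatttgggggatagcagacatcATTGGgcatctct
Adra1b start 2: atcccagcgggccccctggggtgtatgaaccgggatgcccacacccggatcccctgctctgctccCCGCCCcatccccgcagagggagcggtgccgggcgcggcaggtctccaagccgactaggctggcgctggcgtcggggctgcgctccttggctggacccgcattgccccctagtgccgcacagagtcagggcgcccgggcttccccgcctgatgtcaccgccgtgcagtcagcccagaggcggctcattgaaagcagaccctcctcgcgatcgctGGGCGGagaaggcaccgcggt
Ace start 1: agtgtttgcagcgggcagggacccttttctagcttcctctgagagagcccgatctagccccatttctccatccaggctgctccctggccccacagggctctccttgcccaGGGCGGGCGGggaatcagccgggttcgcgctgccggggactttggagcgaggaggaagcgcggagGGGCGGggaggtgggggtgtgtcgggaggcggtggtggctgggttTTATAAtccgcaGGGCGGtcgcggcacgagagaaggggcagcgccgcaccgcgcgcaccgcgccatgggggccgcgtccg
The Edn3 window held none of the 5 motifs, and its GC content was 61% (median of all windows 52.7%). In the first Adra1b window (42.3% GC) CCAAT boxes began 119 and 51 bases before the start and 38 bases after it, the last on the opposite strand. The second Adra1b window (71.3% GC) held GC boxes at -185, on the opposite strand, and 30. In the first Ace window (69.7% GC) 4 GC boxes began at -140, -136, -75 and -18, the first pair overlapping, and the TATA box core lay at -29, overlapping a match on the opposite strand at -30. The second Ace window (59% GC), not printed, held only a CCAAT box at -25, on the opposite strand. These are matches of letters, and no binding was measured.

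Libraries held 7962694 to 14554561 estimated counts, of which 5341754 to 10238792 lay outside the mitochondrially encoded genes and were used. CPM is the level of a gene in 1000000 of these counts, with library sizes scaled by trimmed means of M values (TMM). Differences are log2 fold changes with their standard error (SE) and a p-value adjusted over all genes tested, called at 0.05. Pkp2 lay at 37.9 to 98.6 CPM in cKO RV and 34.4 to 87.9 CPM in cKO LV, below every WT library (125 to 187 and 161 to 221 CPM), and vector-treated libraries lay above every WT library but for 1 AAV_3E13 library in each ventricle. Summed CPM of 8 cardiomyocyte markers was 10258 to 32078 in cKO RV, against 32348 to 45481 in WT RV, and 8202 to 23032 in cKO LV, against 42351 to 53514 in WT LV, with 6 and 8 of 8 called lower, and all 7 macrophage markers were called higher in both ventricles. The part of these markers in the member values was not tested. In such bulk RNA fewer cells of a type and less RNA per cell cannot be told apart. A single WT RV library (animal WT_HBSS_5819) carried atrial transcripts (282.7 summed CPM of 6 atrial markers, next highest 65.6), and the RV library of PKP2_m1e14_2.5wk_5814 was the only 1 of 64 with both Xist (262 CPM) and Ddx3y (98.9 CPM), while the LV library of that animal held 3075 and 0 CPM. Results that changed without either animal are named with their values.

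Among members, 5 of 8 were called in cKO against WT in the RV (1 higher, 4 lower) where 42.3% of all 14150 genes tested were called, and 6 of 8 in the LV (1 higher, 5 lower), where 46.6% were. With so large a share of all genes called, nothing is read from these counts alone. The median log2 fold change of the members was -1.23 in the RV, beside 0.018 over all genes tested, and -1.49 in the LV, beside 0.049. Under the unequal-variance test on log2(TPM + 1) used by the study, 2 members were called in the RV (Adra1a and Adra1b) and 1 in the LV (Adra1a). Of the calls against WT in the vector groups, that test kept those of Ace and Edn3 in AAV_3E13 RV, Adra1a, Ace and Edn3 in AAV_1E14_2.5wk RV and all 5 in AAV_3E13 LV. An exact permutation test over libraries, on both tails, cannot go below p = 0.00140 with 4 cKO and 9 WT libraries, and that value (0.0151 adjusted over the 184 such tests run on members) was reached by Adra1a, Adra1b and Agtr1a in both ventricles and by Edn3 in the LV. This test was run on members only, so the share of all genes that reach that value is not known. The adjustment does not cover all genes either.

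**Figure D1:**
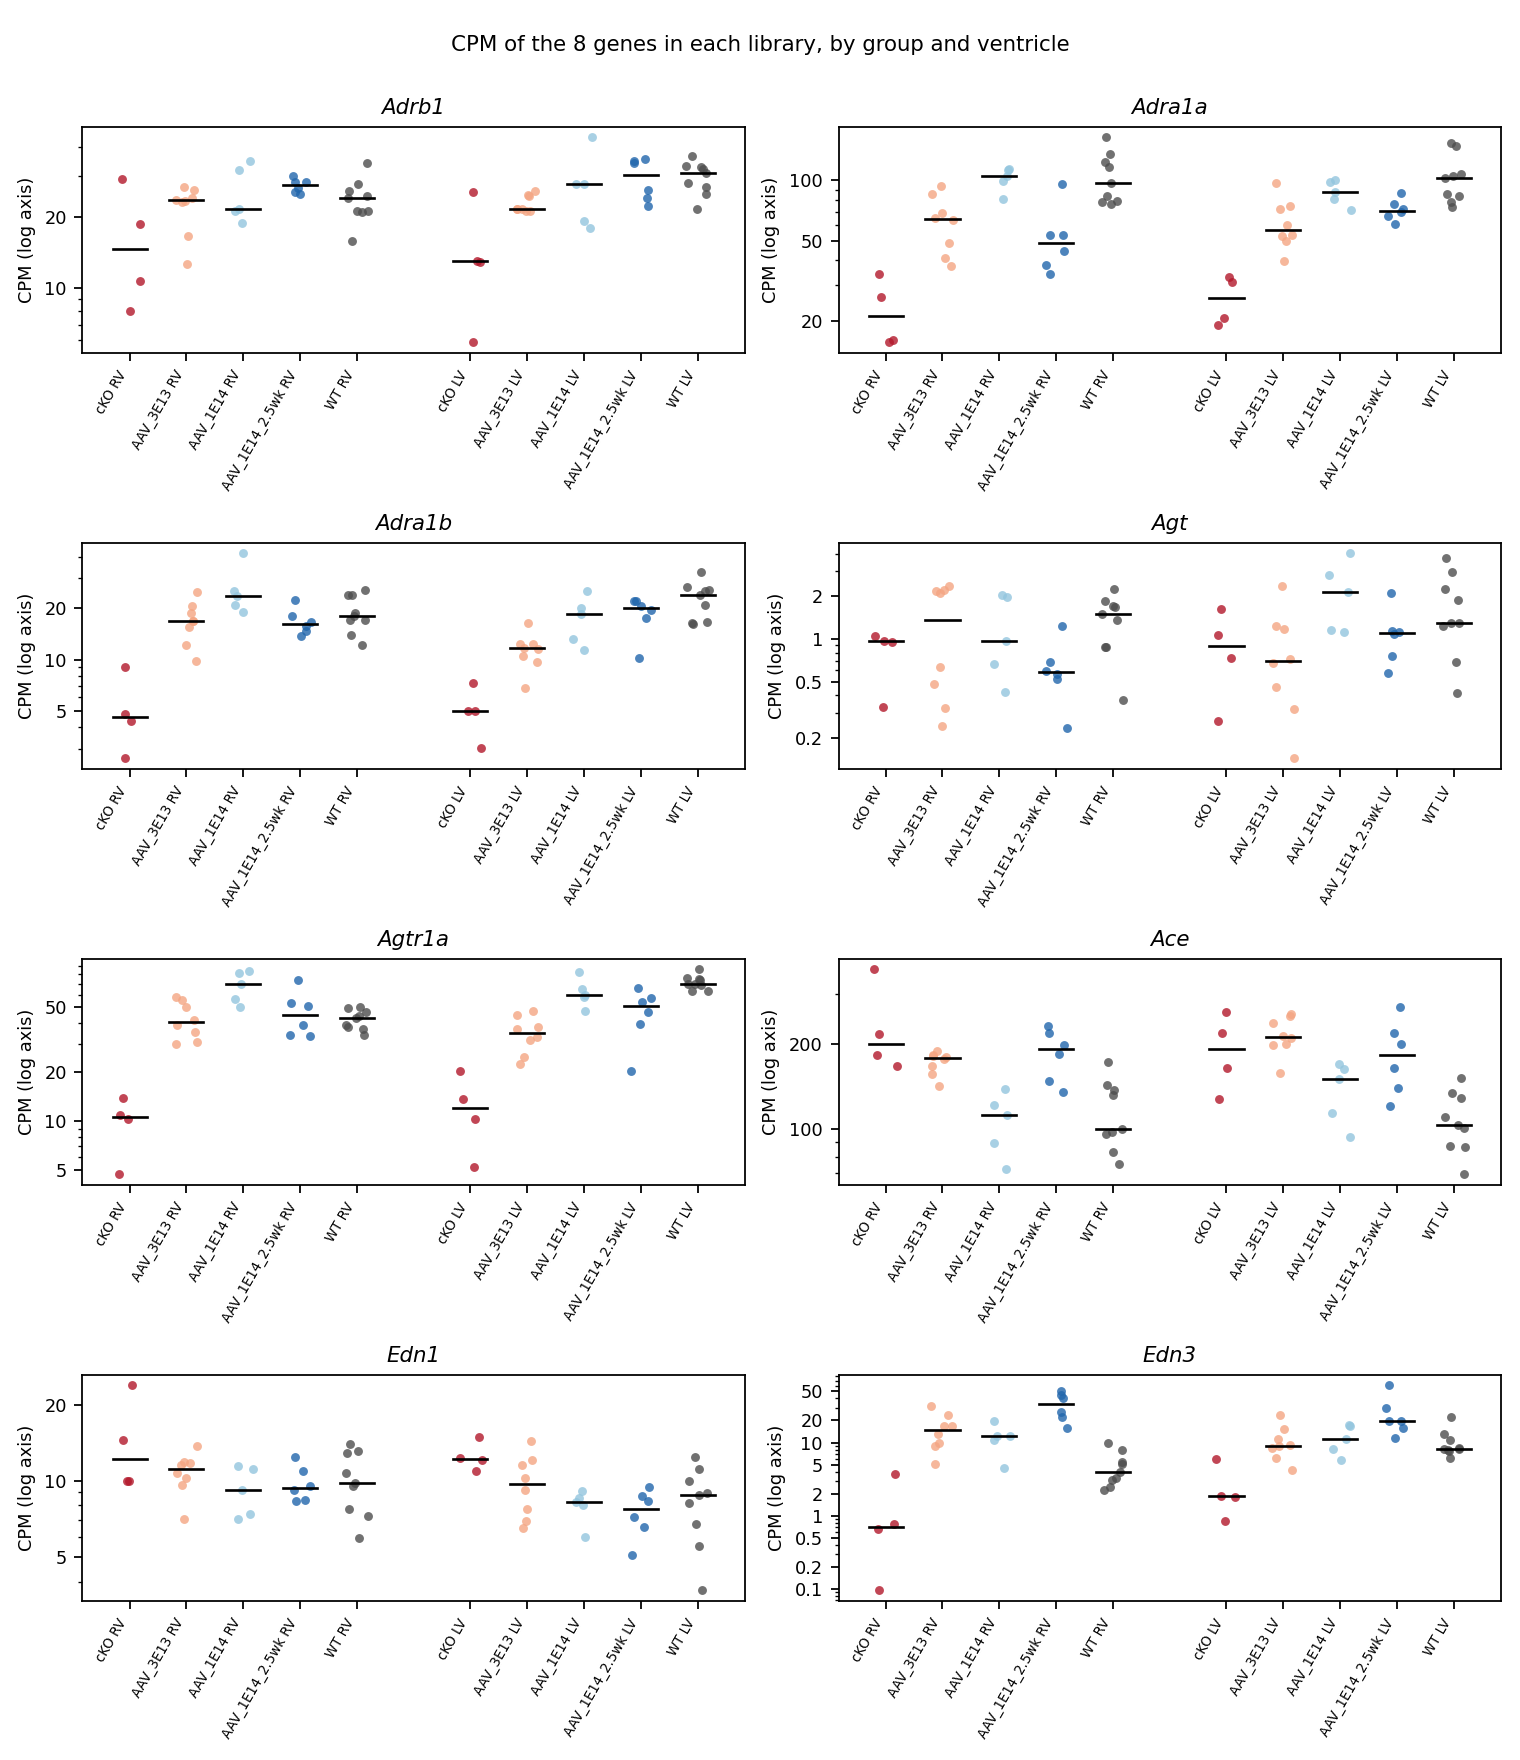
CPM (log axis) of the 8 members in each library, by group within RV and LV, with a point per library and a bar at the group median. Adra1a, Adra1b and Agtr1a have their lowest group medians in cKO in each ventricle, and their cKO libraries do not overlap those of WT.

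Adrb1 (chr19:56710631-56721545, GRCm39) encodes the beta-1 receptor, the main target of noradrenaline in cardiomyocytes. In the LV it fell in cKO, with 5.88, 12.9, 13.1 and 25.7 CPM, against a lowest of 21.8, a median of 31.0 and a highest of 36.5 CPM in the 9 WT libraries (log2 fold change -1.03, SE 0.27, adjusted p = 0.00634). Of the 4 cKO libraries 3 lay below every WT library, and the highest overlapped them. In the RV the cKO libraries held 8.00, 10.7, 18.8 and 29.1 CPM, against a lowest of 15.9, a median of 24.3 and a highest of 34.1 CPM in WT, a difference that was not called (log2 fold change -0.47, SE 0.28, adjusted p = 0.192). The change in cKO was not shown to differ between ventricles (RV minus LV 0.53, SE 0.40, adjusted p = 0.621).

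With the vector, Adrb1 in AAV_3E13 LV stayed lower than in WT, with a lowest of 21.2, a median of 21.8 and a highest of 25.9 CPM (log2 fold change -0.35, SE 0.098, adjusted p = 0.00860). The 8 libraries spread over only 21.2 to 25.9 CPM, and 5 lay below every WT library, but the call was lost with all groups in one fit (adjusted p = 0.135) and with ventricles summed per animal (adjusted p = 0.158). In AAV_1E14_2.5wk LV, with 22.3, 30.2 and 35.4 CPM (lowest, median and highest), it was higher than in cKO (log2 fold change 1.03, SE 0.33, adjusted p = 0.0315), a call lost without any of 6 animals (PKP2_m1e14_2.5wk_5801, PKP2_m1e14_2.5wk_5807 and PKP2_m1e14_2.5wk_5814 and PKP2_HBSS_2006, PKP2_HBSS_2052 and PKP2_HBSS_3217; log2 fold change 0.77 to 0.99). In AAV_1E14 LV, with 18.0, 19.3, 27.7, 27.8 and 43.9 CPM, neither the difference from cKO (adjusted p = 0.101) nor that from WT (adjusted p = 0.973) was called. By mean level in the LV the groups ran WT, AAV_1E14_2.5wk, AAV_1E14, AAV_3E13 and cKO, and only the last step exceeded the combined SD of its neighbours (the square root of their summed squared SDs).

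Adra1a (chr14:66872700-67012152), the alpha-1A receptor, which acts in cardiomyocytes and smooth muscle, had the highest level per transcript length of the 8 members in WT RV (median 46.4 TPM), while in WT LV its median of 45.0 TPM lay below that of Agtr1a (59.7 TPM). In the RV it lay at 15.6, 16.1, 26.2 and 34.1 CPM in cKO, against a lowest of 76.2, a median of 97.3 and a highest of 164 CPM in WT, and fell 4.42-fold (log2 fold change -2.14, SE 0.27, adjusted p = 2.38e-05). In the LV it lay at 19.1, 20.6, 31.2 and 32.9 CPM in cKO, against a lowest of 73.6, a median of 103 and a highest of 154 CPM in WT (log2 fold change -1.99, SE 0.24, adjusted p = 1.46e-05). All cKO values lay under the lowest WT value in both ventricles, and the fall was called under every alternative and without any single animal.

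With the vector, Adra1a differed from WT in some groups and not in others. AAV_1E14 RV held 81.0, 99.6, 105, 113 and 114 CPM and LV 70.9, 80.4, 87.4, 98.2 and 101 CPM, and neither was called different from WT (log2 fold change -0.052 and -0.25, adjusted p = 0.850 and 0.928). AAV_3E13 held 37.3, 64.4 and 93.8 CPM in RV (lowest, median and highest) and 39.6, 56.8 and 96.8 CPM in LV. That was lower than in WT in both ventricles (log2 fold change -0.75, SE 0.19, adjusted p = 0.0108 in RV and -0.72, SE 0.18, adjusted p = 0.00371 in LV), with 6 of 8 libraries of each ventricle below every WT library. The RV call was lost with the effective transcript length as covariate (adjusted p = 0.148) and under the test on log2(TPM + 1) (adjusted p = 0.110), and the LV call under no alternative.

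The AAV_1E14_2.5wk RV libraries held a lowest of 34.2, a median of 49.0 and a highest of 96.2 CPM, 1.99-fold lower than WT (log2 fold change -0.99, SE 0.23, adjusted p = 0.00261), and all but animal PKP2_m1e14_2.5wk_5801 lay below every WT library, a call lost with the effective length as covariate. They also lay lower than AAV_1E14 RV (log2 fold change -0.93, SE 0.22, adjusted p = 0.0211), a call lost without PKP2_m1e14_5822 (log2 fold change -0.90, adjusted p = 0.0512). The higher dose was above the lower one in the RV (log2 fold change 0.68, SE 0.20, adjusted p = 0.0398), a call lost without any 1 of the 5 AAV_1E14 animals or of PKP2_m3e13_2029 or PKP2_m3e13_2033 (log2 fold change 0.64 to 0.76), and not in the LV (adjusted p = 0.0788). Against cKO, Adra1a was higher in all 3 vector groups in both ventricles, from 2.27-fold in AAV_1E14_2.5wk RV to 4.42-fold in AAV_1E14 RV, with no overlap of libraries. The AAV_1E14_2.5wk RV libraries had a lower mean log2 effective transcript length, taken relative to the mean over libraries (-0.0311 to -0.0195) than cKO RV (0.0258 to 0.0410) and WT RV (0.00465 to 0.0735) libraries, and with that length as a covariate the comparison of AAV_1E14_2.5wk with cKO in the RV called no member and gave Adra1a a log2 fold change of -0.63. As these ranges do not overlap, length and group cannot be told apart in AAV_1E14_2.5wk RV against cKO or WT. The covariate fits of these comparisons therefore cannot decide whether a call holds.

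By mean level Adra1a ran WT, AAV_1E14, AAV_3E13, AAV_1E14_2.5wk and cKO in the RV, and WT, AAV_1E14, AAV_1E14_2.5wk, AAV_3E13 and cKO in the LV. In both orders the step under AAV_1E14 and the step above cKO exceeded the combined SD of the neighbours, and the other steps did not.

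Adra1b (chr11:43665433-43792037), the alpha-1B receptor, with the pair of promoter windows shown earlier, fell in cKO in both ventricles. The RV libraries held 2.63, 4.38, 4.79 and 9.07 CPM in cKO, against a lowest of 12.2, a median of 17.9 and a highest of 25.5 CPM in WT (log2 fold change -1.80, SE 0.29, adjusted p = 1.64e-04). The LV libraries held 3.04, 4.97, 4.98 and 7.25 CPM in cKO, against a lowest of 16.1, a median of 23.8 and a highest of 32.4 CPM in WT, a 4.43-fold fall (log2 fold change -2.15, SE 0.26, adjusted p = 1.37e-05). The groups did not overlap in either ventricle, and the LV call was lost under the test on log2(TPM + 1).

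In the AAV_3E13 group the ventricles differed. The LV held 6.85, 11.7 and 16.5 CPM (lowest, median and highest), 1.95-fold lower than WT (log2 fold change -0.96, SE 0.17, adjusted p = 1.88e-04), with 7 of 8 libraries below every WT library, whereas the RV held 9.80, 16.9 and 24.8 CPM and was not called (log2 fold change -0.15, adjusted p = 0.562). The difference between these differences was called (RV minus LV 0.82, SE 0.25, adjusted p = 0.00906). AAV_1E14 held 19.1, 20.8, 23.4, 25.1 and 42.1 CPM in RV and 11.4, 13.3, 18.5, 20.2 and 25.2 CPM in LV, and AAV_1E14_2.5wk 13.7, 16.2 and 22.2 CPM in RV and 10.2, 20.1 and 22.2 CPM in LV (lowest, median and highest). None of these 4 sets was called different from WT (adjusted p from 0.0905 to 0.928).

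Against cKO, Adra1b was higher in each vector group and ventricle, from 2.20-fold in AAV_3E13 LV (log2 fold change 1.14, SE 0.26, adjusted p = 0.0102) to 4.99-fold in AAV_1E14 RV (log2 fold change 2.32, SE 0.36, adjusted p = 3.39e-04). The only overlap of libraries was in AAV_3E13 LV, where the lowest library held 6.85 CPM and the highest cKO library 7.25 CPM. The higher dose exceeded the lower in the LV by 0.61 on the log2 scale (SE 0.21, adjusted p = 0.0498), which lay at the threshold and was lost without any of 10 of the 13 animals, those other than PKP2_m1e14_5822 and PKP2_m1e14_5825 and PKP2_m3e13_2029 (log2 fold change 0.45 to 0.63). In mean level cKO was last in both ventricles, and the step above it exceeded the combined SD, as did the step between AAV_1E14 and AAV_3E13 in the LV.

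Agt (chr8:125279301-125296716) encodes angiotensinogen, the precursor of all angiotensins, which the body makes mainly in the liver. It was the least abundant member per length (median 1.18 TPM in WT RV and 1.27 TPM in WT LV) and rested on 1 to 31 estimated counts a library, so the depth limits what can be shown. Levels were 0.329, 0.959, 0.964 and 1.05 CPM in cKO RV, against a lowest of 0.369, a median of 1.501 and a highest of 2.27 CPM in WT RV, and 0.261, 0.734, 1.06 and 1.62 CPM in cKO LV, against a lowest of 0.418, a median of 1.30 and a highest of 3.72 CPM in WT LV. Neither difference was called (log2 fold change -0.68, SE 0.47, adjusted p = 0.271 in RV and -0.91, SE 0.58, adjusted p = 0.214 in LV). Summed CPM of 4 hepatocyte markers was at most 3.57 in any library.

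The single call for Agt was in AAV_1E14_2.5wk RV, with a lowest of 0.233, a median of 0.581 and a highest of 1.24 CPM, lower than in WT (log2 fold change -1.10, SE 0.41, adjusted p = 0.0429). The groups overlapped, and the call was lost without any of PKP2_m1e14_2.5wk_5755, PKP2_m1e14_2.5wk_5801, PKP2_m1e14_2.5wk_5806, PKP2_m1e14_2.5wk_5807 and PKP2_m1e14_2.5wk_5814 (log2 fold change -1.11 to -0.92). Agt did not pass the filter on low counts without WT_HBSS_13, WT_HBSS_2004, WT_HBSS_2031, WT_HBSS_2040, WT_HBSS_5819 or WT_HBSS_5823, and with the effective length as covariate the log2 fold change was 0.46 (adjusted p = 0.807). Length and group cannot be told apart in that covariate fit. In AAV_3E13 LV and AAV_1E14_2.5wk LV the gene did not pass the filter on low counts when compared with WT. AAV_1E14 LV had the highest levels, 1.12, 1.15, 2.16, 2.81 and 4.03 CPM, not called different from WT (adjusted p = 0.957) or cKO (adjusted p = 0.120). No neighbouring groups in the order of mean Agt levels differed beyond their combined SD in either ventricle.

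Ace (chr11:105858469-105880790) encodes angiotensin converting enzyme, found largely on endothelium, which forms angiotensin II and degrades bradykinin. It was the 1 member called higher in cKO. The RV held 167, 183, 216 and 366 CPM in cKO, against a lowest of 75.2, a median of 100.0 and a highest of 173 CPM in WT (log2 fold change 1.08, SE 0.23, adjusted p = 0.00136), and the LV 127, 164, 219 and 259 CPM in cKO, against a lowest of 69.4, a median of 104 and a highest of 152 CPM in WT (log2 fold change 0.85, SE 0.20, adjusted p = 0.00326). In each ventricle 3 of 4 cKO libraries lay above every WT library. Summed CPM of 8 endothelial markers was 1227 to 1898 in cKO RV, against 1340.5 to 1866 in WT RV, and 1139.8 to 2258 in cKO LV, against 1312 to 1629 in WT LV. None of these markers was called higher in the RV (1 lower) and 1 was in the LV, while of 7 fibroblast markers 4 were called higher and 1 lower in the RV and 1 each way in the LV. Their part in the level of Ace was not tested.

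Ace stayed above WT in AAV_3E13. The LV held a lowest of 158, a median of 211 and a highest of 254 CPM, 2.02-fold the WT level (log2 fold change 1.01, SE 0.14, adjusted p = 1.50e-05), with all 8 libraries above every WT library (exact permutation p = 8.23e-05, 0.00757 adjusted over 184 tests). In the RV a lowest of 142, a median of 178 and a highest of 189 CPM were measured (log2 fold change 0.58, SE 0.14, adjusted p = 0.00715) with 5 of 8 libraries above every WT library. Of the 8 endothelial markers 7 were called higher than in WT in AAV_3E13 LV (summed CPM 1389 to 2161) and 7 lower in AAV_3E13 RV (summed CPM 1160.3 to 1496). Fibroblast markers were called higher for 6 of 7 in LV and 5 of 7 in RV. The part of either marker list in the level of Ace was not tested.

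AAV_1E14 held 72.6, 89.3, 112, 122 and 139 CPM in RV and 93.6, 114, 150.0, 163 and 169.6 CPM in LV, and neither was called different from WT (log2 fold change -0.12 and 0.35, adjusted p = 0.685 and 0.928). Ace fell at the higher dose relative to the lower in both ventricles. In the RV the doses did not overlap (log2 fold change -0.71, SE 0.13, adjusted p = 0.00627), and in the LV they did (log2 fold change -0.66, SE 0.15, adjusted p = 0.00699). Both calls were lost under the test on log2(TPM + 1). In the RV AAV_1E14 lay below cKO with no overlap and kept the call without any single animal (log2 fold change -1.14, SE 0.25, adjusted p = 0.00296), but not under that test. AAV_3E13 RV lay below cKO (log2 fold change -0.48, SE 0.17, adjusted p = 0.0335), which was lost without PKP2_m3e13_2029, PKP2_m3e13_2033, PKP2_m3e13_2047 or PKP2_m3e13_5809 or PKP2_HBSS_3217 (log2 fold change -0.48 to -0.19).

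In AAV_1E14_2.5wk Ace was above WT again, with 135, 191 and 231 CPM in RV (lowest, median and highest) and 121, 182 and 269 CPM in LV. The RV rise (log2 fold change 0.69, SE 0.17, adjusted p = 0.00509) was called under every alternative, while the LV rise (log2 fold change 0.79, SE 0.18, adjusted p = 0.0393) was lost without any of 10 of the 15 animals (PKP2_m1e14_2.5wk_5755, PKP2_m1e14_2.5wk_5806 and PKP2_m1e14_2.5wk_5810 and all WT but WT_HBSS_5803 and WT_HBSS_5819; log2 fold change 0.65 to 0.83). Against AAV_1E14, which had the same dose before induction by the labels, the RV level was higher (log2 fold change 0.82, SE 0.18, adjusted p = 0.0166) and the LV level was not called (adjusted p = 0.687). This RV call was lost under the test on log2(TPM + 1), with the effective length as covariate and with ventricles summed per animal. Mean levels in the RV ran cKO, AAV_1E14_2.5wk, AAV_3E13, WT and AAV_1E14, with a step beyond the combined SD only between AAV_3E13 and WT. In the LV, from AAV_3E13 through cKO, AAV_1E14_2.5wk and AAV_1E14 to WT, no step did.

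Agtr1a (chr13:30518942-30566850), the type 1a receptor through which angiotensin II acts in the mouse heart, showed the largest fall of the 8 members in cKO LV. The LV held 5.23, 10.4, 13.6 and 20.2 CPM in cKO, against a lowest of 62.7, a median of 69.7 and a highest of 86.0 CPM in WT, a 5.68-fold fall (log2 fold change -2.51, SE 0.26, adjusted p = 4.75e-06). The RV held 4.71, 10.3, 10.9 and 13.8 CPM in cKO, against a lowest of 33.9, a median of 42.8 and a highest of 50.2 CPM in WT (log2 fold change -2.03, SE 0.22, adjusted p = 7.22e-06). All 4 cKO libraries lay below every WT library in both ventricles, though both calls were lost under the test on log2(TPM + 1).

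The WT level itself differed between ventricles, and the vector groups departed from it in the RV and the LV in different ways. In WT the RV level was below the LV level in all 9 animals (log2 fold change -0.76, SE 0.084, adjusted p = 5.46e-06). The relative effective length ran higher in WT RV libraries (median 0.0393, 0.00465 to 0.0735) than in WT LV libraries (median -0.0463, -0.104 to 0.0275). The Agtr1a call was kept with that length as covariate, though ventricle and length can be told apart only in part in WT. AAV_3E13 LV held a lowest of 22.4, a median of 34.8 and a highest of 47.9 CPM, 2.02-fold lower than WT (log2 fold change -1.01, SE 0.13, adjusted p = 7.23e-06), with all 8 libraries below every WT library (exact permutation p = 4.11e-05, the smallest that 8 against 9 allow, 0.00757 adjusted over 184 tests). AAV_3E13 RV held a lowest of 29.7, a median of 40.5 and a highest of 57.7 CPM and was not called (log2 fold change 0.0087, adjusted p = 0.972). Cardiomyocyte markers were called lower for 7 of 8 in AAV_3E13 LV (summed CPM 25431 to 36087) and for 2 of 8, with 1 higher, in AAV_3E13 RV (29791 to 45481), and their part was not tested. The differences from WT were unequal in the ventricles (RV minus LV 1.03, SE 0.19, adjusted p = 5.90e-05).

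At the higher dose, AAV_1E14 RV held 50.1, 56.3, 69.3, 81.3 and 84.4 CPM and was above WT RV, 4 of 5 libraries lying above every WT library (log2 fold change 0.68, SE 0.13, adjusted p = 0.00143). Of the 8 cardiomyocyte markers 6 were called higher there and 1 lower. AAV_1E14 LV held 47.3, 57.8, 59.6, 64.6 and 82.8 CPM and was not called (log2 fold change -0.19, adjusted p = 0.928), and the ventricles differed in this contrast (RV minus LV 0.87, SE 0.18, adjusted p = 0.00122). AAV_1E14_2.5wk held 33.4, 45.0 and 73.4 CPM in RV (lowest, median and highest) and 20.3, 50.7 and 66.2 CPM in LV. Neither was called (log2 fold change 0.16 and -0.58, adjusted p = 0.461 and 0.103), although 5 of 6 LV libraries lay below every WT library, and without animal PKP2_m1e14_2.5wk_5814 the LV value was -0.70 (adjusted p = 0.0486).

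The higher dose exceeded the lower in both ventricles (log2 fold change 0.66, SE 0.17, adjusted p = 0.0276 in RV and 0.82, SE 0.17, adjusted p = 0.00503 in LV). The RV call was lost without PKP2_m1e14_2034, PKP2_m1e14_2043 or PKP2_m1e14_5822 or PKP2_m3e13_2033 (log2 fold change 0.58 to 0.66). Relative to cKO, Agtr1a was higher in each vector group and ventricle with no overlap of libraries, from 2.72-fold in AAV_3E13 LV to 6.81-fold in AAV_1E14 RV. In mean level the groups ran AAV_1E14, AAV_1E14_2.5wk, AAV_3E13, WT and cKO in the RV and WT, AAV_1E14, AAV_1E14_2.5wk, AAV_3E13 and cKO in the LV, and the step above cKO was the only one beyond the combined SD.

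Edn1 (chr13:42446301-42461466) encodes endothelin 1, the main cardiac endothelin. The cKO libraries held 9.97, 9.99, 14.5 and 23.8 CPM in RV, against 5.96, 9.82 and 13.9 CPM in WT (lowest, median and highest), and 10.9, 12.0, 12.3 and 14.9 CPM in LV, against 3.69, 8.77 and 12.5 CPM in WT. The log2 fold changes were 0.59 (SE 0.26, adjusted p = 0.0756) and 0.60 (SE 0.25, adjusted p = 0.0656), and neither was called. No vector group was called different from WT in either ventricle, with log2 fold changes between -0.13 and 0.26.

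In the LV both groups given 1e+14 vector genomes per kg were lower than cKO. AAV_1E14 LV held 5.99, 8.04, 8.24, 8.59 and 9.11 CPM (log2 fold change -0.68, SE 0.19, adjusted p = 0.0181), and AAV_1E14_2.5wk LV held 5.09, 7.75 and 9.46 CPM (lowest, median and highest; log2 fold change -0.74, SE 0.20, adjusted p = 0.0162). Neither overlapped the cKO libraries, and both calls held without any single animal. Both were lost under the unequal-variance test on log2(TPM + 1) used by the study. The RV values against cKO were -0.67 and -0.60 (adjusted p = 0.0713 and 0.0628) and were not called. No step in the order of mean Edn1 levels exceeded the combined SD.

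Edn3 (chr2:174602088-174625835) encodes endothelin 3, which acts preferentially on the type B receptor. It fell in cKO in both ventricles, with 0.0959, 0.658, 0.767 and 3.68 CPM in cKO RV, against a lowest of 2.21, a median of 3.98 and a highest of 9.99 CPM in WT RV (log2 fold change -1.79, SE 0.65, adjusted p = 0.0365). In the LV the cKO libraries held 0.839, 1.83, 1.87 and 5.94 CPM, against a lowest of 6.19, a median of 8.23 and a highest of 22.0 CPM in WT, with no overlap (log2 fold change -1.95, SE 0.47, adjusted p = 0.00338). The highest cKO library of each ventricle came from the same animal, PKP2_HBSS_3217, and without it the log2 fold change was -3.18 in RV and -2.76 in LV. The RV call was lost without WT_HBSS_13 or WT_HBSS_2031 or PKP2_HBSS_2006, PKP2_HBSS_2052 or PKP2_HBSS_3213 (log2 fold change -1.68 to -1.41, adjusted p = 0.0569 to 0.101), while the LV call held without any animal. The RV call was also lost with the effective length as offset, and both calls were lost under the test on log2(TPM + 1).

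In the RV Edn3 rose above WT in all 3 vector groups. AAV_3E13 RV held a lowest of 5.06, a median of 15.0 and a highest of 31.5 CPM (log2 fold change 1.71, SE 0.34, adjusted p = 0.00219), with 5 of 8 libraries above every WT library. AAV_1E14 RV held 4.50, 10.7, 12.2, 12.4 and 19.6 CPM (log2 fold change 1.29, SE 0.35, adjusted p = 0.0123), a call lost without PKP2_m1e14_5726 (log2 fold change 1.03, adjusted p = 0.0541). That call was also lost under the test on log2(TPM + 1) and with ventricles summed per animal. AAV_1E14_2.5wk RV held a lowest of 15.6, a median of 33.2 and a highest of 49.96 CPM, 6.81-fold the WT level (log2 fold change 2.77, SE 0.32, adjusted p = 1.31e-05). All 6 of its libraries lay above every WT library (exact permutation p = 2.00e-04, 0.00919 adjusted over 184 tests), and the rise was called under every alternative, the covariate for effective length included. That covariate cannot be told apart from group in this comparison.

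In the LV the vector groups lay closer to WT. AAV_3E13 held 4.19, 9.02 and 23.9 CPM (lowest, median and highest) and AAV_1E14 5.81, 8.11, 11.2, 16.6 and 17.2 CPM, and neither was called (log2 fold change 0.11 and 0.19, adjusted p = 0.808 and 0.970). AAV_1E14_2.5wk LV held 11.7, 19.8 and 60.6 CPM (log2 fold change 1.36, SE 0.33, adjusted p = 0.0490), and the call was lost without the same 10 animals as that of Ace (log2 fold change 0.91 to 1.43). The RV difference from WT exceeded the LV difference in AAV_3E13 (RV minus LV 1.61, SE 0.48, adjusted p = 0.00790) and in AAV_1E14_2.5wk (1.44, SE 0.48, adjusted p = 0.0366). The AAV_1E14_2.5wk call was lost without any of PKP2_m1e14_2.5wk_5806, PKP2_m1e14_2.5wk_5807, PKP2_m1e14_2.5wk_5810 and PKP2_m1e14_2.5wk_5814 and WT_HBSS_2004, WT_HBSS_2027, WT_HBSS_5813 and WT_HBSS_5819 (1.13 to 1.46).

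Relative to cKO, Edn3 was higher in each vector group and ventricle, from 4.01-fold in AAV_3E13 LV to 23.8-fold in AAV_1E14_2.5wk RV (log2 fold change 4.57, SE 0.66, adjusted p = 2.25e-04). All 6 differences were called, that of AAV_3E13 LV not without PKP2_HBSS_2006 or PKP2_HBSS_3213 (log2 fold change 1.89 to 1.91), and without PKP2_HBSS_3217 they lay between 2.81 and 6.02. AAV_1E14_2.5wk was above AAV_1E14 in the RV (log2 fold change 1.49, SE 0.36, adjusted p = 0.0226), which was lost without PKP2_m1e14_5822 or PKP2_m1e14_2.5wk_5755 (log2 fold change 1.34 to 1.504). Mean RV levels ran AAV_1E14_2.5wk, AAV_3E13, AAV_1E14, WT and cKO, and each step but that between AAV_3E13 and AAV_1E14 exceeded the combined SD, while in the LV only the step from WT to cKO did.

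**Figure D2:**
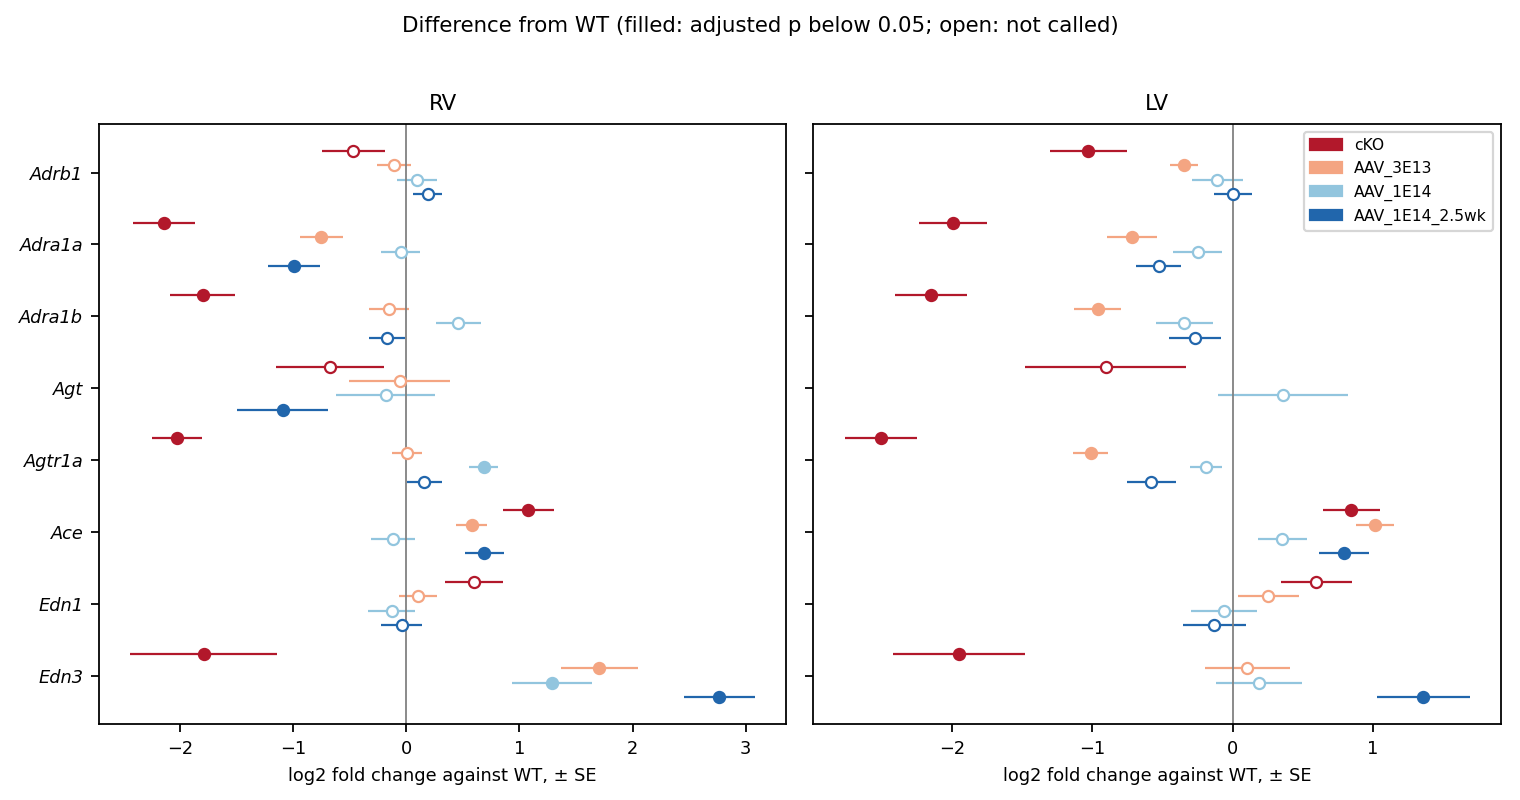
Log2 fold change against WT (± SE) of the 8 members in each group, by ventricle, with filled symbols for values called at an adjusted p under 0.05. In cKO 4 RV and 5 LV members are called lower and Ace higher, and Edn3 is called higher in the RV of all 3 vector groups, while Agt has no symbol where it did not pass the filter on low counts.

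Against WT, members called were 3 of 8 in AAV_3E13 RV (2 higher, 1 lower, 21.8% of all genes), 5 of 7 in AAV_3E13 LV (1 higher, 4 lower, 39.2%), 2 of 8 in AAV_1E14 RV (both higher, 29.5%), 4 of 8 in AAV_1E14_2.5wk RV (2 higher, 2 lower, 36.3%) and 2 of 7 in AAV_1E14_2.5wk LV (both higher, 1.49%). In AAV_1E14 LV 0 of 8 were called by edgeR (0.00750% of all genes), 0 by DESeq2 and 0 at an unadjusted p under 0.05, while 610 of all genes had such a p. With the effective length as covariate the AAV_1E14_2.5wk RV count was 2 (Ace and Edn3), in a fit where length and group cannot be told apart. All 8 endothelial markers were called lower in AAV_1E14 RV and in AAV_1E14_2.5wk RV (summed CPM 1061 to 1341 and 997 to 1316, against 1340.5 to 1866 in WT RV), and their part in these results was not tested.

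Against cKO, with which all these comparisons share the same 4 animals, 5 of 8 members were called in AAV_3E13 RV (4 higher, 1 lower, 42.0% of all genes), 4 of 7 in AAV_3E13 LV (all higher, 18.0%), 5 of 8 in AAV_1E14 RV (4 higher, 1 lower, 50.6%), 5 of 8 in AAV_1E14 LV (4 higher, 1 lower, 35.4%), 4 of 8 in AAV_1E14_2.5wk RV (all higher, 47.9%) and 6 of 7 in AAV_1E14_2.5wk LV (5 higher, 1 lower, 33.3%). Adra1a, Adra1b, Agtr1a and Edn3 were higher in all 6, and with the effective length as covariate the AAV_1E14_2.5wk RV count was 0. In that fit length and group cannot be told apart. The age of the cKO hearts and their time since induction cannot be told apart from their lack of treatment in these contrasts.

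**Figure D3:**
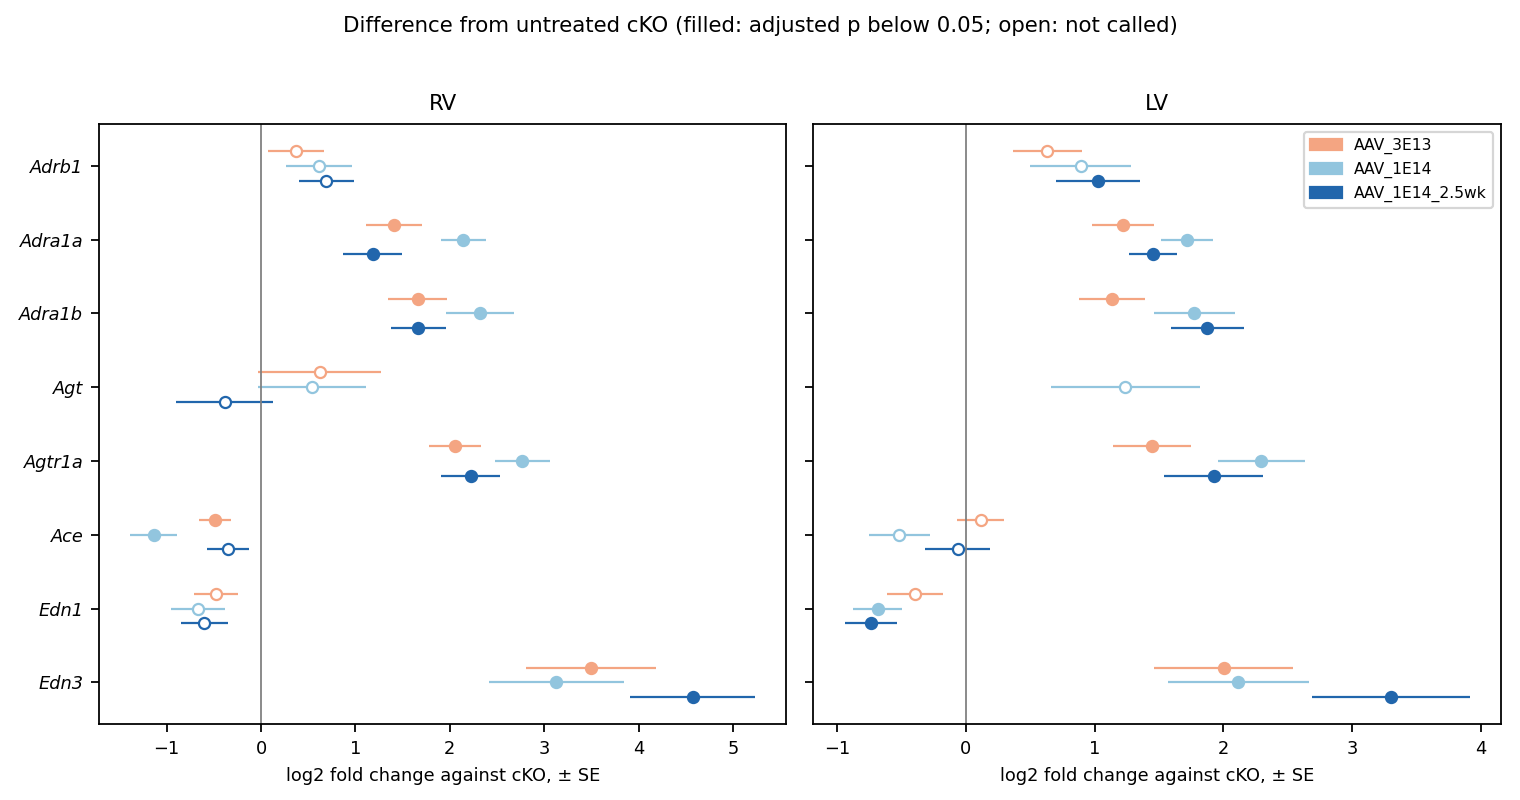
Log2 fold change against cKO (± SE) of the 8 members in each vector group, by ventricle, with filled symbols for values called at an adjusted p under 0.05. Adra1a, Adra1b, Agtr1a and Edn3 are filled and above 0 in all 6 comparisons.

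Between doses, 3 of 8 members were called in the RV (2 higher, 1 lower in AAV_1E14 than in AAV_3E13, 9.97% of all genes) and 3 of 7 in the LV (2 higher, 1 lower, 19.0%). Agtr1a was higher and Ace lower at the higher dose in both ventricles, and with the effective length as covariate the RV count was 1 of 8. Under the test on log2(TPM + 1) the counts were 0 in RV and 1 in LV (Agtr1a). Between times of dosing at 1e+14, 3 of 7 were called in the RV (2 higher, 1 lower in AAV_1E14_2.5wk than in AAV_1E14, 8.93%), namely Ace and Edn3 higher and Adra1a lower, and with that covariate none was. In the LV 0 of 7 were called by edgeR (0% of all genes) and 0 by DESeq2, with 2 members and 964 of all genes at an unadjusted p under 0.05.

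The ventricles of the same animals were then compared. The main fits did not pair the libraries of an animal, and fits with the animal as a block are given beside them where calls differed. In WT 2 of 8 members were called (both lower in RV, 27.7% of all genes): Agtr1a, lower in the RV of 9 of 9 animals (exact sign-flip permutation p = 0.00391, the smallest 9 pairs allow, 0.0195 adjusted over 184 tests), and Edn3, lower in 8 of 9 (log2 fold change -1.09, SE 0.29, adjusted p = 0.00778). The Edn3 value without animal WT_HBSS_5819, whose RV library carried atrial transcripts, was -0.79 (adjusted p = 0.0309). Cardiomyocyte markers ran the same way in WT, 7 of 8 called lower in RV, and 5 of 8 endothelial markers were called higher, and their part in these differences was not tested. WT RV libraries also had higher relative effective lengths than WT LV libraries (medians 0.0393 and -0.0463). The Agtr1a and Edn3 calls were kept with that length as covariate.

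In AAV_3E13 2 of 7 members were called (1 higher, 1 lower in RV, 20.2% of all genes), and they were not those called in WT. Adra1b was higher in the RV of 7 of 8 animals (log2 fold change 0.54, SE 0.18, adjusted p = 0.0396), a call lost without PKP2_m3e13_2033, PKP2_m3e13_2045, PKP2_m3e13_2047, PKP2_m3e13_2048 or PKP2_m3e13_5768 (0.46 to 0.58), and Ace was lower in the RV of all 8 (log2 fold change -0.34, SE 0.094, adjusted p = 0.0149), a call lost without PKP2_m3e13_2047 (-0.31). Agtr1a was higher in the RV of 6 of 8 animals and Edn3 of 7 of 8, neither called (adjusted p = 0.293 and 0.343). With the animal as a block, which the labels support since both libraries come from 1 mouse, Adrb1 was called lower in WT RV as well (log2 fold change -0.32, adjusted p = 0.0239).

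By edgeR 0 of 7 members were called between ventricles in cKO (0.00726% of all genes), 0 of 8 in AAV_1E14 (2.95%) and 0 of 7 in AAV_1E14_2.5wk (0.0226%). DESeq2 also called 0 in each, and at an unadjusted p under 0.05 there were 0, 0 and 2 members beside 368, 2717 and 1637 of all genes. With the animal as a block Ace was called lower in AAV_1E14 RV (log2 fold change -0.39, adjusted p = 0.0182), where it was lower in all 5 animals.

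Tested as differences of differences, the log2 fold change against WT in the RV minus that in the LV was called for 3 of 8 members in AAV_3E13 (Adra1b, Agtr1a and Edn3, all positive, 36.9% of all genes), 1 of 8 in AAV_1E14 (Agtr1a, positive, 20.0%) and 2 of 8 in AAV_1E14_2.5wk (Agtr1a and Edn3, both positive, 18.4%). For Adra1b and Agtr1a in AAV_3E13 it was the LV level that was called lower than WT, with the RV level not called. For Agtr1a in AAV_1E14_2.5wk the value was 0.76 (SE 0.24, adjusted p = 0.0262), lost without PKP2_m1e14_2.5wk_5801 or WT_HBSS_5813 (0.65 to 0.71). It was also lost with the effective length as covariate and with all groups in one fit. The Edn3 call in AAV_1E14_2.5wk was lost with the effective length as offset, with no filter on low counts and with all groups in one fit. All these contrasts rest on the WT ventricles, which differed in relative effective length. In cKO 0 of 8 were called by edgeR (0.0272% of all genes), 0 by DESeq2 and 0 at an unadjusted p under 0.05, beside 1803 of all genes. The animal as a block gave calls for Ace in AAV_3E13 (-0.40, adjusted p = 0.00129), Adra1b and Ace in AAV_1E14 (0.80 and -0.46, adjusted p = 0.00856 and 0.00115) and Adra1a in AAV_1E14_2.5wk (-0.51, adjusted p = 0.0152) in addition.

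**Figure D4:**
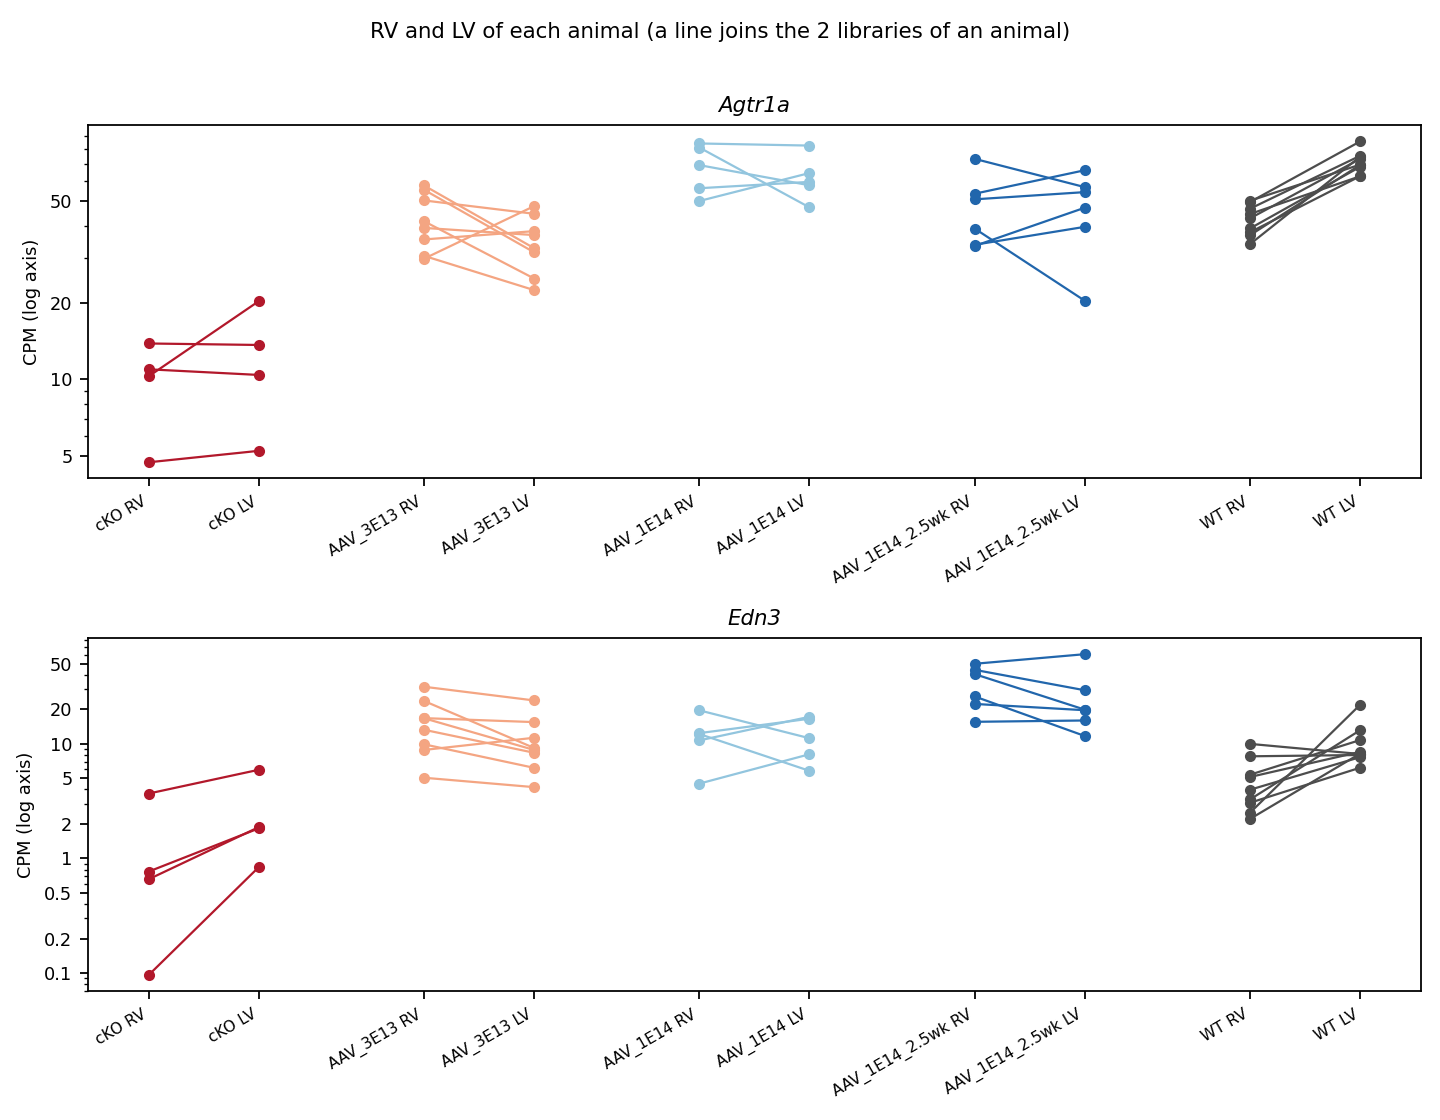
CPM (log axis) of Agtr1a and Edn3 in the RV and LV library of each animal, joined by a line, by group. In WT the Agtr1a lines go up from RV to LV in all 9 animals, and in AAV_3E13 6 of 8 go down.

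Between genes, levels per transcript length can be compared as TPM. In WT RV the medians were 46.4 TPM for Adra1a, 36.7 for Agtr1a, 34.5 for Ace, 21.3 for Adrb1, 14.2 for Adra1b, 8.16 for Edn1, 2.03 for Edn3 and 1.18 for Agt. In cKO RV the medians were 8.92 TPM for Adra1a, 10.9 for Agtr1a, 59.5 for Ace and 10.7 for Adrb1. Ace was the highest of the 8 members there.

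Other genes of these pathways were taken from lists. Of 45 genes of adrenergic signalling and catecholamine handling, 42 were tested in each ventricle in cKO against WT, with 8 higher and 19 lower in RV and 9 higher and 21 lower in LV (median log2 fold change -0.16 and -0.44, beside 0.018 and 0.049 over all genes). Of all genes tested, 42.3% were called in RV and 46.6% in LV, and nothing is read from the list counts alone. Of the other adrenergic receptors, Adra1d and Adra2b had medians of 2.05 and 1.85 CPM in WT RV and did not pass the test, and Adrb3, Adra2a and Adra2c were too low to test.

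Arrb2, beta-arrestin 2, which uncouples and internalizes activated receptors, rose in both ventricles, with 46.2 to 121 CPM in cKO RV, against 14.6 to 25.0 CPM in WT RV (log2 fold change 2.25, SE 0.19, adjusted p = 1.08e-06; LV 2.14). Arrb1, the other beta-arrestin, rose by 0.65 in RV and 0.82 in LV on the log2 scale. Maob, a monoamine oxidase that degrades catecholamines, lay at 7.45 to 14.2 CPM in cKO LV, against 46.2 to 83.8 CPM in WT LV (log2 fold change -2.49, SE 0.20, adjusted p = 1.06e-06; RV -1.81). Pde3a, a phosphodiesterase that breaks down cyclic AMP, had log2 fold changes of -1.58 and -1.91 in RV and LV, and Akap6, an anchor of protein kinase A, -1.25 and -1.48. All of these were called in both ventricles, none with any overlap between cKO and WT libraries. They were picked from the list for the smallest p in this same comparison, so their calls follow from the choice.

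Of 26 renin-angiotensin genes other than the members, 19 were tested in RV (5 higher, 7 lower, median log2 fold change -0.32) and 17 in LV (4 higher, 8 lower, median -0.49) in cKO against WT. Over all genes tested, 42.3% were called in RV and 46.6% in LV, with medians of 0.018 and 0.049. The genes named next, up to Hsd11b1, were picked from the list for the smallest p in this same comparison. Peptidases among them moved in both directions. Anpep, aminopeptidase N, held 48.5 to 178 CPM in cKO RV, against 27.9 to 38.6 CPM in WT RV (log2 fold change 1.77, SE 0.22, adjusted p = 2.17e-05; LV 1.60), and Prcp, a carboxypeptidase that acts on angiotensin II, rose by 1.11 and 1.14. Mme, neprilysin, which degrades natriuretic and vasoactive peptides, held 4.22 to 12.0 CPM in cKO RV, against 20.1 to 35.0 CPM in WT RV (log2 fold change -1.63, SE 0.24, adjusted p = 7.63e-05; LV -1.81).

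Arap1 was called higher in cKO (1.39 in RV and 1.38 in LV), and Hsd11b1, which activates glucocorticoids, lower (-1.57 in both). Ren1 (renin), Agtr1b and Agtr2 (the other angiotensin receptors) reached at most 0.488 CPM in any library, and were not tested. Among 7 endothelin genes other than the members, 4 were tested in cKO against WT, with 1 higher and 1 lower in RV and 3 higher and 1 lower in LV. Their median log2 fold changes were -0.0052 and 0.43, beside 0.018 and 0.049 over all genes, of which 42.3% and 46.6% were called. Nothing is read from counts of so few genes. Ednra, the type A receptor, fell in both ventricles, with 34.9 to 59.9 CPM in cKO LV, against 75.6 to 117 CPM in WT LV, and 38.4 to 50.2 CPM in cKO RV, against 61.0 to 97.6 CPM in WT RV (RV log2 fold change -0.75, SE 0.14, adjusted p = 4.55e-04; LV adjusted p = 1.30e-04). Ednrb, the type B receptor, was called higher in cKO LV (log2 fold change 0.51, SE 0.17, adjusted p = 0.0247; RV log2 fold change -0.0045, adjusted p = 0.991), as was Ece1, an endothelin converting enzyme (LV 0.35). No difference between the ventricles is claimed for these. The test of RV minus LV in cKO against WT called 0.0272% of all genes, and its values for Ednrb and Ece1 are not given here. Ece2, the other converting enzyme, rose by 0.83 and 0.91.

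**Figure D5:**
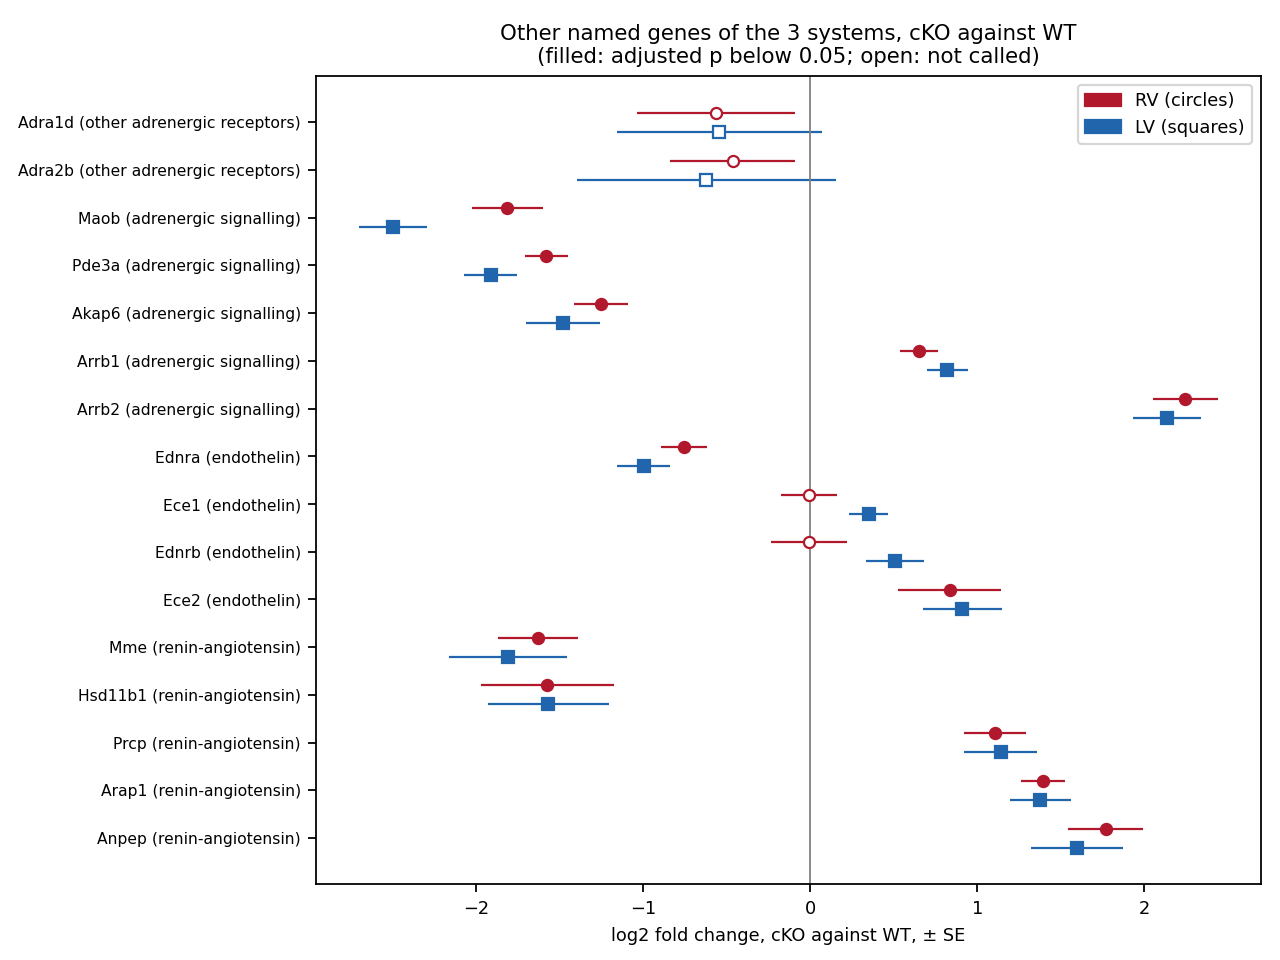
Log2 fold change of cKO against WT (± SE) of 16 other genes of the adrenergic, angiotensin and endothelin lists, in RV (circles) and LV (squares), with filled symbols for called values. Arrb2 lies highest, near 2 in both ventricles, and Maob lowest, at -2.49 in LV.

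The genes whose levels ran most like each member across all 64 libraries were looked up among 10758 genes with a mean of at least 5 CPM, as Pearson's r of log2(CPM + 0.5). These r describe libraries that share animals, groups and depth, and carry no test. Agtr1a had the closest neighbours, Acadm, Acsl1 and Lrrc39 (r = 0.972, 0.965 and 0.962, and still 0.879, 0.851 and 0.828 for deviations from group means). Acadm and Acsl1 encode enzymes of fatty acid use, and Acsl1 was also among the neighbours of Adra1b, with Hadha and Fitm2 (r = 0.916 for Hadha, 0.913 for Acsl1 and 0.912 for Fitm2). Adra1a ran with Gpcpd1, Cpeb3 and Tbc1d4 (r = 0.922, 0.904 and 0.894), and Adrb1 with Ky, Ttn, which encodes the giant sarcomere protein titin, and Myo5b (r = 0.823, 0.815 and 0.806).

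Ace ran with the matrix genes Wisp2, Aebp1 and Ltbp2 (r = 0.885, 0.827 and 0.817, and 0.777, 0.656 and 0.527 for deviations from group means). Edn3 ran with Ptpn11, Clic5 and Amot (r = 0.868, 0.865 and 0.854). For Edn1 and Agt the best neighbours were weaker, Reps2 at r = 0.601 and Cnksr3 at r = 0.499, and Agt rested on few counts.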

How the data were processed

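RNA of the right and left ventricle of 32 mice was sequenced. Per the labels and the study's methods, reads were trimmed with fastp and quantified with Salmon 1.8.0 against GENCODE transcripts (GRCm39), and transcripts were summed to genes with tximport. The library kit named is a ribosomal depletion kit for stranded total RNA, whereas the labels give polyA RNA. The authors deposited estimated counts per gene, which were rounded to whole numbers for tests, and TPM values, which were used for levels between genes and for the alternative test. All columns matched a sample (0 unmatched), and 1 row without a gene name, at most 0.00136% of a library, was left out, as were 37 mitochondrially encoded genes (16.6 to 40.2% of counts), since they would otherwise move every share.

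Each of the 27 comparisons was fitted on the libraries of the groups compared, with edgeR 4.0.16 (R 4.3.3; filterByExpr, TMM, quasi-likelihood F test), and Benjamini-Hochberg adjusted p-values over all genes tested were called below 0.05. Within a group RV and LV were compared by a ventricle term, and differences from WT were compared between ventricles by an interaction term. These main fits took the libraries of an animal as independent, and the animal entered only as a block in an alternative. Single values were tested with exact permutation tests over libraries, 184 in all, on log2(CPM + 0.5). Alternatives were DESeq2 1.42.0, RLE normalisation, no filter on low counts, the mitochondrial genes kept, effective length as offset or covariate, all groups in one fit, ventricles summed per animal, unequal-variance tests on log2(TPM + 1), which the study used, and on log2(TPM + 0.1), the animal as a block, and each animal left out. Fits of some of the comparisons were also run on simulated data, whose outcome is not given here, so nothing is read from it.

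The RV and LV libraries of an animal are paired by the animal number in the labels. Their deviations from the group means had a median correlation of 0.141 (-0.0443 to 0.598, 21 of 32 animals above 0.1), against -0.0222 for different animals of a group. Replicates are animals, and litters or library batches were not given in the sources used here. Members are the 8 genes named by symbol. For each, the 3 genes with the highest Pearson's r over 64 libraries were named. From the pathway lists the receptors, ligands and main enzymes were named (some are not reported here), with up to 5 further genes a list by the smallest of the larger p of both ventricles in cKO against WT. Pkp2 was named as a check of the labels. Members, lists and tests were chosen with earlier results of these data known. P-values cover the spread between these libraries only, and the number of counts limits Agt and, in cKO, Edn3.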

Additional observations from a re-analysis of the deposited data

Results flagged for a closer look

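In 6 of 80 groups of 4 to 9 libraries, 1 library stood apart from the rest of its group by Dixon's test, beside about 1 in 20 expected by chance. Adra1a reached 96.2 CPM in the RV of PKP2_m1e14_2.5wk_5801, above the 5 other libraries. Adra1b reached 42.1 CPM in the RV of PKP2_m1e14_2043. Agt was low in the RV of PKP2_HBSS_2006 (0.329 CPM) and high in the LV of PKP2_m1e14_2.5wk_5807 (2.12 CPM), both on few counts. Edn3 reached 60.6 CPM in the LV of PKP2_m1e14_2.5wk_5755 and 22.0 CPM in the LV of WT_HBSS_5819, the animal whose RV library carried atrial transcripts.

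The log2 fold changes against WT in the RV and the LV were unequal by an interaction term for 3 members in AAV_3E13, namely Adra1b (RV minus LV 0.82, adjusted p = 0.00906), Agtr1a (1.03, adjusted p = 5.90e-05) and Edn3 (1.61, adjusted p = 0.00790). In AAV_1E14 this held for Agtr1a (0.87, adjusted p = 0.00122), and in AAV_1E14_2.5wk for Agtr1a (0.76, adjusted p = 0.0262) and Edn3 (1.44, adjusted p = 0.0366). Of these, Adra1b and Agtr1a in AAV_3E13 were called lower than WT in the LV and not called in the RV. The Agtr1a interaction was called in all 3 vector groups, which share the same 9 WT animals, and the WT levels of Agtr1a were lower in RV than in LV in 9 of 9 animals. In AAV_1E14_2.5wk that interaction was lost with the effective length as covariate and with all groups in one fit.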

How the results depend on the processing

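Of 75 member values called, 24 kept their call under every alternative and every left-out animal, and 58 under every left-out animal alone. The cause of the changes below was not tested. Counts of members called that moved by over 1.5 times were as follows. The unequal-variance test on log2(TPM + 1), which lost 42 of the 75 calls, called 2 in cKO against WT RV and 1 in LV, 0 in AAV_1E14 against WT RV, 0 in AAV_1E14_2.5wk against WT LV, 2 in AAV_3E13 against cKO RV and 1 in LV, 3 in AAV_1E14 against cKO RV and 1 in LV, 1 in AAV_1E14_2.5wk against cKO LV, 0 in AAV_1E14 against AAV_3E13 RV and 1 in LV, 0 in AAV_1E14_2.5wk against AAV_1E14 RV, and between ventricles 0 in AAV_3E13 and 1 in WT. On log2(TPM + 0.1), which lost 44, the counts were 1 in cKO against WT RV and 1 in LV, 0 in AAV_1E14 against WT RV, 0 in AAV_1E14_2.5wk against WT LV, 2 in AAV_3E13 against cKO RV and 1 in LV, 3 in AAV_1E14 against cKO RV and 1 in LV, 2 in AAV_1E14_2.5wk against cKO RV and 1 in LV, 0 in AAV_1E14 against AAV_3E13 RV and 1 in LV, 0 in AAV_1E14_2.5wk against AAV_1E14 RV and 0 between ventricles in AAV_3E13. With the relative effective length as covariate (18 calls lost), 2 were called in AAV_1E14_2.5wk against WT RV and 0 in LV, 0 in AAV_1E14_2.5wk against cKO RV, 1 in AAV_1E14 against AAV_3E13 RV, 0 in AAV_1E14_2.5wk against AAV_1E14 RV, 1 between ventricles in AAV_3E13, and 2 and 1 for RV minus LV in AAV_1E14 and AAV_1E14_2.5wk. Its covariate turned Agt in AAV_1E14_2.5wk against WT RV to 0.46 and Adra1a in AAV_1E14_2.5wk against cKO RV to -0.63 (log2), neither called. The lengths of AAV_1E14_2.5wk RV do not overlap those of WT RV or cKO RV, so the covariate cannot be told apart from group there. With ventricles summed per animal, so that LV reads enter the RV comparison, 5 were called in AAV_3E13 against WT, 0 in AAV_1E14 against WT and 2 in AAV_1E14_2.5wk against AAV_1E14, and Agtr1a in AAV_3E13 against WT was -0.53 (adjusted p = 0.00112), against 0.0087 in RV alone. AAV_1E14_2.5wk against WT LV gave 4 calls with DESeq2 and 1 each with no filter, the mitochondrial genes kept or all groups in one fit. Between ventricles in AAV_3E13, no filter and all groups in one fit each gave 1. For RV minus LV, DESeq2 gave 2 in AAV_1E14, and in AAV_1E14_2.5wk no filter gave 1, the length offset 1 and all groups in one fit 0.

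With the animal as a replicate block, pairing the libraries of a mouse, 1 member was called between ventricles in AAV_1E14 and 3 for RV minus LV in AAV_1E14, and the block added the calls given in the text. With each animal left out in turn there were 1 to 2 calls in AAV_1E14 against WT RV, 1 to 3 in AAV_1E14 against AAV_3E13 RV, 1 to 5 in AAV_1E14_2.5wk against AAV_1E14 RV, 0 to 3 in AAV_1E14_2.5wk against WT LV, 0 to 2 between ventricles in AAV_3E13, 1 to 3 for RV minus LV in AAV_1E14 and 0 to 2 in AAV_1E14_2.5wk. Agt rested on 1 to 31 counts a library, which limits what its comparisons can show.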
